A study of Canis lupus familiaris with 33 samples.

Results

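The major histocompatibility complex (MHC) of the dog lies at the start of chromosome 12. It was followed here in RNA-seq libraries of canine oligodendroglioma, a glial brain tumour, and of healthy brain. Members were the rows of the count table on chromosome 12 whose highest end was at or below 2900000 and which had at least 2 distinct exons after overlapping exon intervals were merged (CanFam3.1 coordinates). This rule, which uses position and gene structure and no measured value, gave 127 of 30951 genes. A further 15 single-exon features of the same interval were not members. The last member ended at 2865604, and the next gene beyond the limit ended at 2901683. The members are numbered 1 to 127 here in order along the chromosome, because the count table gives Ensembl identifiers without gene names.

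MHC class I molecules display peptides from inside the cell to cytotoxic T cells. Class II molecules display peptides taken up from outside to helper T cells, mainly on dendritic cells, B cells and macrophages, and in brain on microglia. The class III stretch between them holds genes of other kinds, among them complement components, cytokines of the tumour necrosis factor family and many housekeeping genes, and genes for peptide loading and transport sit beside class II. In the RefSeq annotation of another dog assembly (UU_Cfam_GSD_1.0) the class I genes DLA88 and DLA-64 lie before the TNF and complement genes, which are followed by DLA-DRA, DLA-DQA1, DLA-DQB1, TAP2, TAP1, DLA-DMB and DLA-DMA. That table paired 0 of the identifiers with a name. Members are therefore described by position and exon number, and it could not be checked which of them encode class II molecules, nor could markers of microglia, T cells or other cell types be read. The interval from 2100000 to 2500000, where class II genes are placed by the rule that defines the region, is called the class II window.

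Tissue was taken at necropsy 1 to 18 h after death. It was formalin-fixed and paraffin-embedded (FFPE) or frozen (fresh-frozen, FF), and 33 libraries of 25 dogs were sequenced. The FFPE tumours (n = 11 dogs) were 9 of grade III and 2 of grade II, from 4 Boxers, 6 French Bulldogs and 1 Pomerian (spelled as in the labels). The FFPE controls (n = 10) came from 4 Boxers, 5 French Bulldogs and 1 Bolonka Swetna. The FF tumours (n = 6) were 5 of grade III and 1 of grade II, from 1 Boxer, 3 French Bulldogs, 1 Pomerian and 1 Border Terrier. The FF controls (n = 6) came from 2 French Bulldogs, 1 Hovawart, 1 Berner sennenhund, 1 Bolonka Swetna and 1 mongrel, with no Boxer. Stated ages ran from 4.7 to 12 years in FFPE tumour dogs (median 8.2, 9 dogs with an age) and from 2 to 8 years in FFPE control dogs (median 4, 5 dogs). In FF tissue they ran from 4.7 to 10 years in tumour dogs (median 8.2, 5 dogs) and from 2.8 to 10.2 years in control dogs (median 6.9, 5 dogs). No treatment of the dogs is given in the labels, and each library is 1 sample of 1 dog. In 8 dogs both an FFPE and an FF library were made.

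Total counts ran from 1752162 to 12501029 in FFPE tumours, from 406406 to 32584840 in FFPE controls, from 9765907 to 25168080 in FF tumours and from 15255966 to 26726025 in FF controls. In the shallowest library, FFPE control dog 50315, a count of 0 allows up to 3 counts, or 7.38 CPM (counts scaled to a common library total), which covers counting error only. The mitochondrial share of counts was 9.61% to 34.6% in FFPE tumours, 13.9% to 40.3% in FFPE controls, 4.06% to 23.3% in FF tumours and 9.94% to 19.8% in FF controls. The MHC region took 0.225% to 0.706% of the counts of an FFPE tumour library (median 0.535%) and 0.237% to 0.550% of an FFPE control library (median 0.448%). It took 0.302% to 0.732% of an FF tumour library (median 0.516%) and 0.267% to 0.509% of an FF control library (median 0.351%). One library stood apart in this region. FF control dog 60516, the mongrel, had the highest level among the 6 FF controls for all 5 tested members of the class II window, so FF results there are given with and without it. This dog was singled out from these same values. The fits without it thus describe its weight and are not separate support for a rise. The FF libraries were also split into 2 sets by their expression values. The cut was at the largest gap along principal component 2 of the deviations from group means. Such a cut always gives 2 sets, and the labels name none. Dogs 60127 and 60461 (tumour) and 60126 and 60462 (control) were in the smaller one.

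Of the 127 members, 93 had enough counts to be tested in at least 1 tumour comparison (88 in FFPE, 92 in FF tissue, 87 in both). The 34 that were tested in neither had 2 to 417 counts in total over all 33 libraries, with a median of 22.5. Members had 2 to 68 exons (median 7) and 207 to 12274 bp of exonic sequence (median 1611). By position, 35 members lay below 1.0 Mb, 61 between there and the class II window, 7 in the window and 24 beyond it. Exons of 8 members overlapped exons of another gene on the same strand, and those of 21 members overlapped exons on the other strand.

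The class II window was higher in tumours than in controls at the median of its tested members in both kinds of tissue, with wide spread between dogs. The summed level of its 7 members was 138.8, 428.7 and 1031 CPM (lowest, median, highest) in FFPE tumours, against 88.7, 217.6 and 502.9 CPM in FFPE controls. In FF tissue it was 140.7, 374.1 and 766.8 CPM in tumours, against 96.3, 106.5 and 490.7 CPM in controls. The 490.7 CPM was dog 60516, and the other 5 FF controls lay between 96.3 and 113.1 CPM, below every FF tumour. The tumours themselves spread: FFPE tumour dogs 60636 and 51234 reached 1031 and 980.2 CPM, while dogs 60127 and 60679 had 138.8 and 174.6 CPM. The same 2 dogs were the lowest FF tumours, with 149.4 CPM in dog 60127 and 140.7 CPM in dog 60679. In bulk tissue, more cells of a type and more RNA per cell cannot be told apart.

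Member 100 (chr12:2244820-2251662, minus strand, 6 exons) was the window member called in FFPE tissue. Its level was 2.11, 20.5 and 52.5 CPM (lowest, median, highest) in FFPE tumours, against 1.17, 4.06 and 9.38 CPM in FFPE controls. In 7 of the 11 tumours it was above every control, and dog 60127 alone among tumours was below the control median. The log2 fold change was 1.90 ± 0.47 (SE), with an edgeR adjusted p of 0.00748. In FF tissue it was 5.30, 17.1 and 64.9 CPM in tumours, against 1.18, 2.43 and 33.3 CPM in controls, where dog 60516 was the highest control. That difference did not pass the test (log2 fold change 1.85 ± 0.90, adjusted p = 0.129). Without dog 60516 it passed (3.41 ± 0.70, adjusted p = 0.00544), and every remaining control was below every tumour. Without tumour dog 60631 the value was 1.25, the lowest on leaving out 1 library. Member 100 also passed with all 12 libraries in limma voom with quality weights (2.69 ± 0.68, adjusted p = 0.007). Those weights can make an outlying library count less, so this call is not separate from the fit without dog 60516.

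Member 103 (chr12:2432505-2438069, plus strand, 6 exons) was the window member called in FF tissue. It had 3.91, 13.1 and 26.1 CPM in FF tumours, against 1.56, 3.71 and 7.50 CPM in FF controls. In 5 of 6 tumours it was above every control. Its log2 fold change was 1.81 ± 0.45 (adjusted p = 0.011), and 2.01 without dog 60516 (adjusted p = 0.00841). In FFPE tissue it had 1.74, 10.8 and 55.2 CPM in tumours, against 2.56, 5.90 and 15.9 CPM in controls, and did not pass (1.05 ± 0.45, adjusted p = 0.0932), except without tumour dog 60127 (1.202, adjusted p = 0.0374) or control dog 61478 (1.34, adjusted p = 0.0361), or with DESeq2 (1.11, adjusted p = 0.0457). Without tumour dog 51234 the FFPE value was 0.60, the lowest on leaving out 1 library. The FFPE groups overlapped widely, with tumours at both ends of the range.

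Members 98 and 99 did not pass the main edgeR test in either tissue with all libraries included. Some alternative fits called them, member 99 in FF tissue only. Member 98 (chr12:2132499-2168975, plus strand, 16 exons) had 50.6, 124 and 479 CPM in FFPE tumours, against 29.97, 65.4 and 156 CPM in FFPE controls (0.98 ± 0.39, adjusted p = 0.074). That FFPE value passed on leaving out tumour dogs 44331, 60679 or 60127 or control dogs 50276 or 61478 (1.07 to 1.17, adjusted p of 0.0431 to 0.0498), with DESeq2 (1.028, adjusted p = 0.0308) and with no filter on low counts (1.06, adjusted p = 0.0499). Without tumour dog 60636 the FFPE value was 0.73, the lowest on leaving out 1 library. The FF levels of member 98 were 39.5, 123 and 347 CPM in tumours, against 12.4, 30.3 and 201.5 CPM in controls (1.65 ± 0.72, adjusted p = 0.0955). All 6 FF tumours were above the control median, but dog 60516 was above 4 of them.

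Member 99 (chr12:2221137-2227600, plus strand, 4 exons) had 31.7, 218.5 and 400 CPM in FFPE tumours, against 9.88, 81.1 and 278 CPM in FFPE controls (0.80 ± 0.51, adjusted p = 0.262). FF levels were 16.2, 72.1 and 198 CPM in tumours, against 6.73, 12.2 and 165 CPM in controls (1.42 ± 0.87, adjusted p = 0.221). Without dog 60516 both members passed in FF tissue, member 98 at 2.60 ± 0.59 (adjusted p = 0.00848) and member 99 at 3.03 ± 0.63 (adjusted p = 0.00594). Leaving out tumour dog 60636 gave the lowest values, 1.21 for member 98 and 0.98 for member 99. With all 12 libraries, limma voom called member 98 (2.45 ± 0.63, adjusted p = 0.00763) and member 99 (2.51 ± 0.70, adjusted p = 0.0114), whereas DESeq2 did not (adjusted p of 0.0538 for member 98 and 0.174 for member 99). The limma fit weights each library, so an outlying library can count less. Its calls are thus not separate from those without dog 60516, and the weights are not given here. The FF calls of members 98 and 99 depended on whether 1 control library was left out and on the test, and these were not told apart.

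Member 102 (chr12:2378126-2432303, minus strand, 34 exons) differed least. It had 34.2, 96.2 and 339 CPM in FFPE tumours, against 45.0, 61.7 and 106.5 CPM in FFPE controls (0.55 ± 0.30, adjusted p = 0.186). FF levels were 50.1, 90.7 and 208 CPM in tumours, against 46.4, 61.9 and 83.6 CPM in controls (0.82 ± 0.32, adjusted p = 0.0637). Leaving out dog 60516 changed this value little (0.85, adjusted p = 0.0723), and it passed without tumour dog 60127 (0.98, adjusted p = 0.0239). Without tumour dog 60461 the FF value was 0.46 (adjusted p = 0.222). The FFPE value was lowest without tumour dog 51234, at 0.21. The remaining window members, 97 and 101, were near 0 in all groups, with at most 2.30 and 1.54 CPM in any library, and were not tested.

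**Figure D1:**
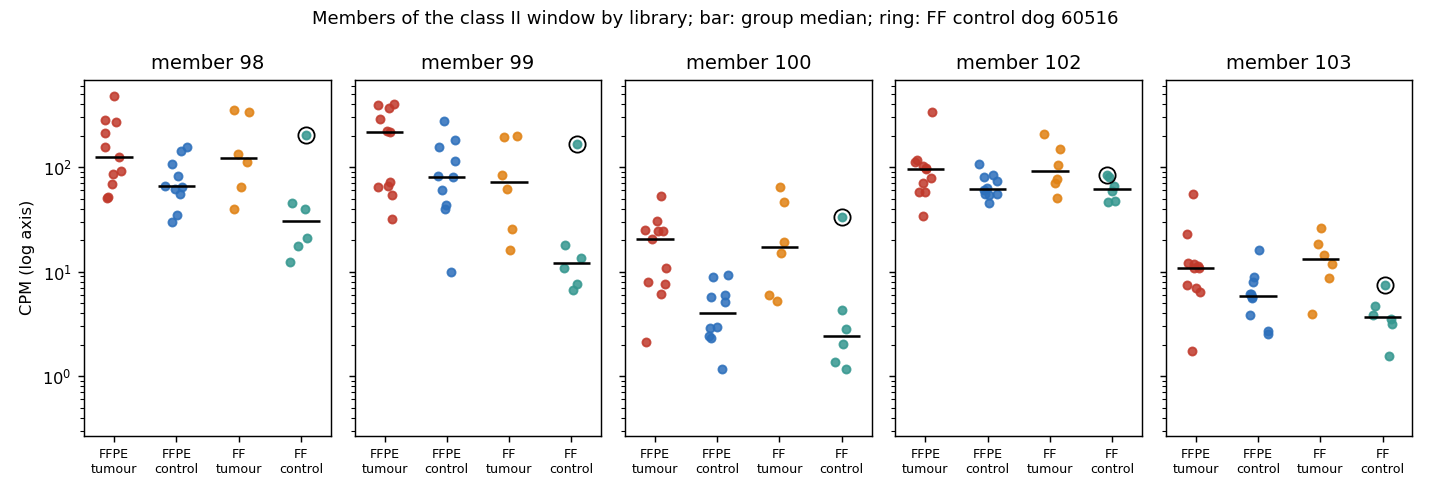
Level of the 5 tested members of the class II window in each library, in CPM on a log axis, for FFPE tumours (n = 11), FFPE controls (n = 10), FF tumours (n = 6) and FF controls (n = 6). Bars are group medians and the ring marks FF control dog 60516, which is the highest FF control in all 5 panels, at 165 CPM for member 99 against at most 17.9 CPM in the other FF controls.

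Over the window, the median log2 fold change of the 5 tested members was 0.98 in FFPE tissue, beside 0.02 over all genes tested, and 1.65 in FF tissue, beside 0.10 over all genes tested. All 5 were positive in each. The number called was 1 of 5 in FFPE tissue and 1 of 5 in FF tissue, by the main edgeR test with all libraries. With DESeq2 it was 3 of 5 in FFPE tissue (members 98, 100 and 103), and the share of all genes called in that fit is not given here. In FF tissue 4 of 5 were called (members 98, 99, 100 and 103) without dog 60516. With all libraries limma voom called the same 4, in a fit that can give an outlying library less weight. The shares of all genes called in those FF fits are not given here. The median was 1.38 in the larger FF set, which holds dog 60516, and 1.80 in the smaller set, where 1 and 0 members were called. Members 102 (0.42 in the larger and 1.46 in the smaller set) and 103 (1.38 and 2.67) differed most between the sets. The smaller set held only tumour dogs 60127 and 60461 and control dogs 60126 and 60462.

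Over the whole region, 13 of 88 tested members (14.8%) changed in FFPE tumours, 6 higher and 7 lower, where 21.1% of all 13338 genes tested were called (10.1% higher and 11.1% lower). The share of the region was thus below the background. The median log2 fold change was 0.11, beside 0.02 over all genes, and 50 of 88 members were positive, where 51% of all genes were. In FF tumours 25 of 92 tested members (27.2%) changed, 18 higher and 7 lower, where 30.5% of all 15057 genes tested were called (18.3% higher and 12.2% lower). The 19.6% of members called higher was close to the background of 18.3%, and the 7.61% called lower was under its 12.2%. The median log2 fold change was 0.39 in FF tissue, beside 0.10 over all genes, and 72 of 92 members were positive, where 54.5% of all genes were. With RLE scaling (median-ratio size factors) the median was 0.30, beside 0.01 over all genes, with 65 of 92 members positive. No stretch of the region held most of the calls. In FFPE tumours there were 5 called of 26 below 1.0 Mb, 3 of 37 up to the window, 1 of 5 in it and 4 of 20 beyond it. In FF tumours there were 8 of 26, 10 of 40, 1 of 5 and 6 of 21 in the same order.

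Age differed between the groups. With age as a covariate in edgeR, in the libraries with a stated age, 0 of 90 members were called in FFPE tissue (10 at an unadjusted p under 0.05) and 1 of 92 in FF tissue, member 115 (28 at an unadjusted p under 0.05). Fewer libraries enter those fits, and whether age or their number ends the calls was not tested. The share of all genes called in those fits is not given here.

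**Figure D2:**
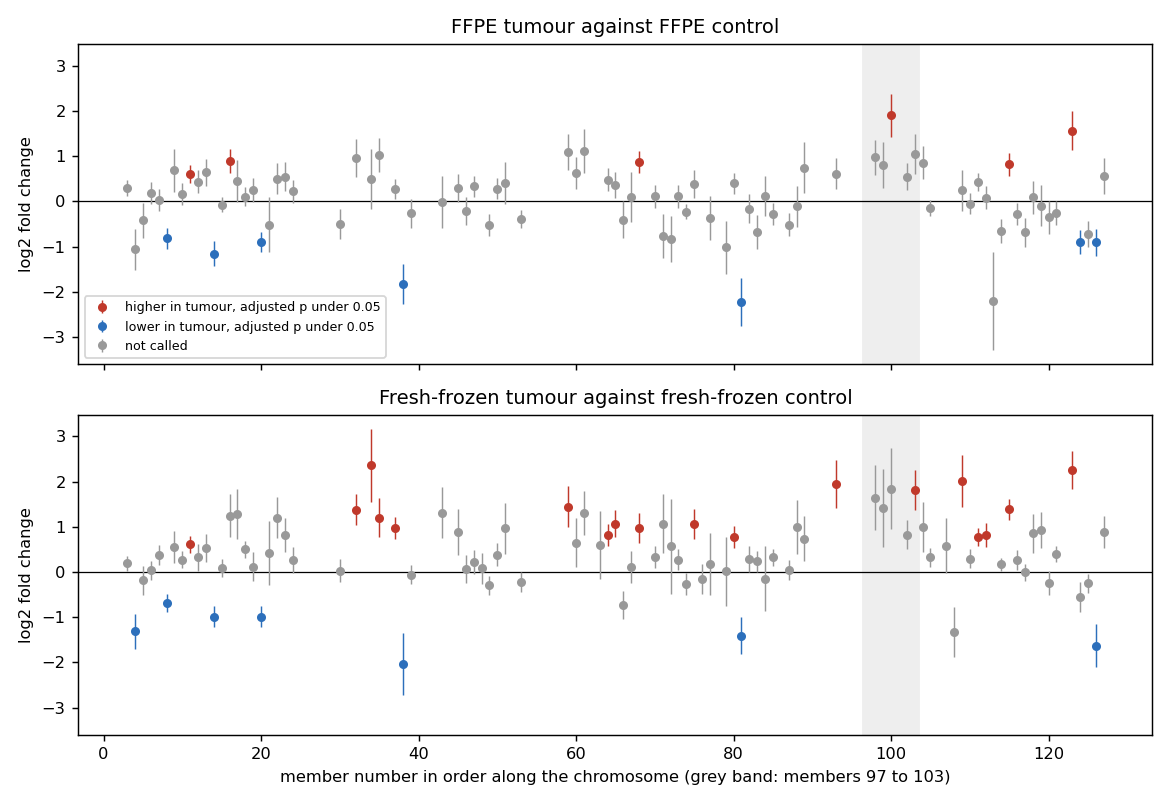
Log2 fold change with its SE (bars) for each tested member, by its number along the chromosome, in FFPE tissue (88 members, top) and in FF tissue (92 members, bottom). Red and blue points passed an adjusted p of 0.05 as higher or lower in tumour, and the calls, 6 red and 7 blue at the top and 18 red and 7 blue at the bottom, are spread over the region.

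A set of 10 members passed in each tumour comparison in the same direction, 4 higher and 6 lower. The comparisons share 8 dogs, so this count is a way of grouping the members and not a repeat. The share of all genes that passed in both is not given here, so the count cannot be set against a background. With the FFPE libraries of those dogs left out, so that no dog was shared, members 123, 14, 38 and 81 still passed in FFPE tissue. Of the others called in FFPE tissue, members 16 and 100 also passed in that fit.

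Member 123 (ENSCAFG00000000987, chr12:2808705-2821217, plus strand, 9 exons) rose most of the 4. It had 7.35, 23.1 and 106.5 CPM in FFPE tumours, against 5.15, 7.30 and 30 CPM in FFPE controls (log2 fold change 1.56 ± 0.43, adjusted p = 0.0149). All 11 FFPE tumours were above the control median, and 5 were above every control. In FF tissue it had 6.11, 21.8 and 38.8 CPM in tumours, against 3.78, 4.30 and 6.86 CPM in controls (2.25 ± 0.43, adjusted p = 0.00347). There 5 of 6 tumours were above every control. Without the shared dogs the FFPE value was 1.99 ± 0.50 (adjusted p = 0.0227).

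Member 115 (chr12:2712952-2718663, plus strand, 5 exons) had the highest median level per kb of exon of all members in FF tumours and in FF controls, and also rose. It had 412, 602 and 902 CPM in FF tumours, against 211, 228 and 326 CPM in FF controls, and the groups did not overlap (1.39 ± 0.23, adjusted p = 0.00203). In FFPE tissue it had 141, 361 and 636 CPM in tumours, against 117, 171 and 297 CPM in controls, with overlap (0.82 ± 0.26, adjusted p = 0.0277). This was the member that still passed with age as a covariate in FF tissue (1.38 ± 0.30, adjusted p = 0.0415). Its FFPE call was lost without the shared dogs (0.61 ± 0.32, adjusted p = 0.225) and without FFPE tumour dog 60679 (0.69, adjusted p = 0.0522). Its length-scaled level was 729 CPM per kb at the median of FF tumours and 276 CPM per kb at that of FF controls. Member 19 (chr12:512767-516144, 4 exons) had 257 CPM per kb in FF tumours and 261 CPM per kb in FF controls. Member 105 (chr12:2534034-2546029, 14 exons) had 80.9 CPM per kb in FF tumours and 59.8 CPM per kb in FF controls. Neither of these passed in either tissue.

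Members 68 and 11 rose by less. Member 68 (ENSCAFG00000000642, chr12:1323877-1328520, minus strand, 6 exons) had 31.9, 56.2 and 103.3 CPM in FF tumours, against 12.0, 35.7 and 41.9 CPM in FF controls (0.98 ± 0.34, adjusted p = 0.0426). In FFPE tissue it had 19.4, 42.4 and 68.0 CPM in tumours, against 8.87, 24.3 and 35.5 CPM in controls, and 9 of 11 tumours were above every control (0.87 ± 0.24, adjusted p = 0.0153). Its FF call was lost on leaving out any of 9 of the 12 FF libraries, all but tumour dogs 60127 and 60636 and control dog 60516 (0.69 to 1.06, adjusted p of 0.0555 to 0.131). It was also lost with RLE scaling (0.87, adjusted p = 0.0587) and with limma voom (0.76, adjusted p = 0.0596). It shares 122 bp of exon with another gene on its strand, and under the deposited settings fragments there are assigned to neither. Member 11 (chr12:417680-427799, 18 exons) changed by 0.60 ± 0.20 in FFPE tissue (adjusted p = 0.0336) and by 0.62 ± 0.19 in FF tissue (adjusted p = 0.025). Its FFPE call was lost without tumour dogs 60749 or 60792 or control dogs 36808, 47198, 50276 or 60460 (0.54 to 0.61, adjusted p of 0.0504 to 0.0613). Its FF call was lost without any of 6 of the 12 FF libraries, tumour dogs 60461, 60631 and 60679 and control dogs 60459, 60460 and 60516 (0.44 to 0.59, adjusted p of 0.0563 to 0.0931), and with RLE scaling (0.53, adjusted p = 0.0506).

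Members 38 and 81 had the largest falls among the members called in FFPE tissue. Member 38 (ENSCAFG00000000513, chr12:1046732-1050103, minus strand, 4 exons) had 1.49, 14.98 and 40.6 CPM in FF tumours, against 43.8, 83.4 and 101.9 CPM in FF controls, and the groups did not overlap. Its log2 fold change was -2.04 ± 0.69 (adjusted p = 0.0388). In FFPE tissue it had 2.505, 14.8 and 56.1 CPM in tumours, against 41.5, 77.0 and 157 CPM in controls, with 8 of 11 tumours below every control (-1.83 ± 0.44, adjusted p = 0.00676). The FF tumour levels spread widely, and the call was lost on leaving out any of 9 of the 12 FF libraries, all but tumour dogs 60679 and 60127 and control dog 60516. The values over all 12 were -1.81 to -2.44. It overlaps 214 bp of exon on the other strand, which stranded counting keeps apart.

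Member 81 (ENSCAFG00000000764, chr12:1542789-1548964, minus strand, 4 exons) had 7.69, 61.5 and 199 CPM in FFPE tumours, against 15.5, 271 and 600 CPM in FFPE controls (-2.23 ± 0.53, adjusted p = 0.00645). The FF levels were 1.13, 3.23 and 4.63 CPM in tumours, against 5.73, 5.99 and 16.4 CPM in controls, and the groups did not overlap (-1.41 ± 0.40, adjusted p = 0.0202). Its fall was thus seen in both tissues, although their levels differed widely. The FF call was lost without FF control dog 60126 (-1.09, adjusted p = 0.0504), which had the 16.4 CPM.

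The other members that fell in both were 8, 14, 20 and 126. Member 20 (chr12:516032-528637, 14 exons) had 78.0, 150 and 194 CPM in FF tumours, against 209, 297 and 316 CPM in FF controls, without overlap (-0.99 ± 0.24, adjusted p = 0.00946), and -0.90 ± 0.22 in FFPE tissue (adjusted p = 0.00787). Member 14 (chr12:456657-460510, 6 exons) had -1.15 ± 0.28 in FFPE tissue (adjusted p = 0.00645) and -0.99 ± 0.24 in FF tissue (adjusted p = 0.00964). Member 8 (chr12:375593-383347, 12 exons) had -0.81 ± 0.23 in FFPE tissue (adjusted p = 0.0179) and -0.68 ± 0.20 in FF tissue (adjusted p = 0.0222), a call lost without control dogs 60460 (-0.54, adjusted p = 0.0552) or 60629 (-0.63, adjusted p = 0.0543). Member 126 (chr12:2829306-2851432, 11 exons) had 7.89, 19.03 and 65.6 CPM in FF tumours, against 41.0, 85.8 and 136 CPM in FF controls (-1.63 ± 0.48, adjusted p = 0.0219). Its FFPE value was -0.90 ± 0.30 (adjusted p = 0.0352), and that call was lost on leaving out any of 10 of the 21 FFPE libraries, tumour dogs 50416, 51234, 60177, 60636 and 60749 and control dogs 36808, 43323, 47198, 50276 and 60126. The FF call was lost without control dog 60460 (-1.46, adjusted p = 0.0514).

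**Figure D3:**
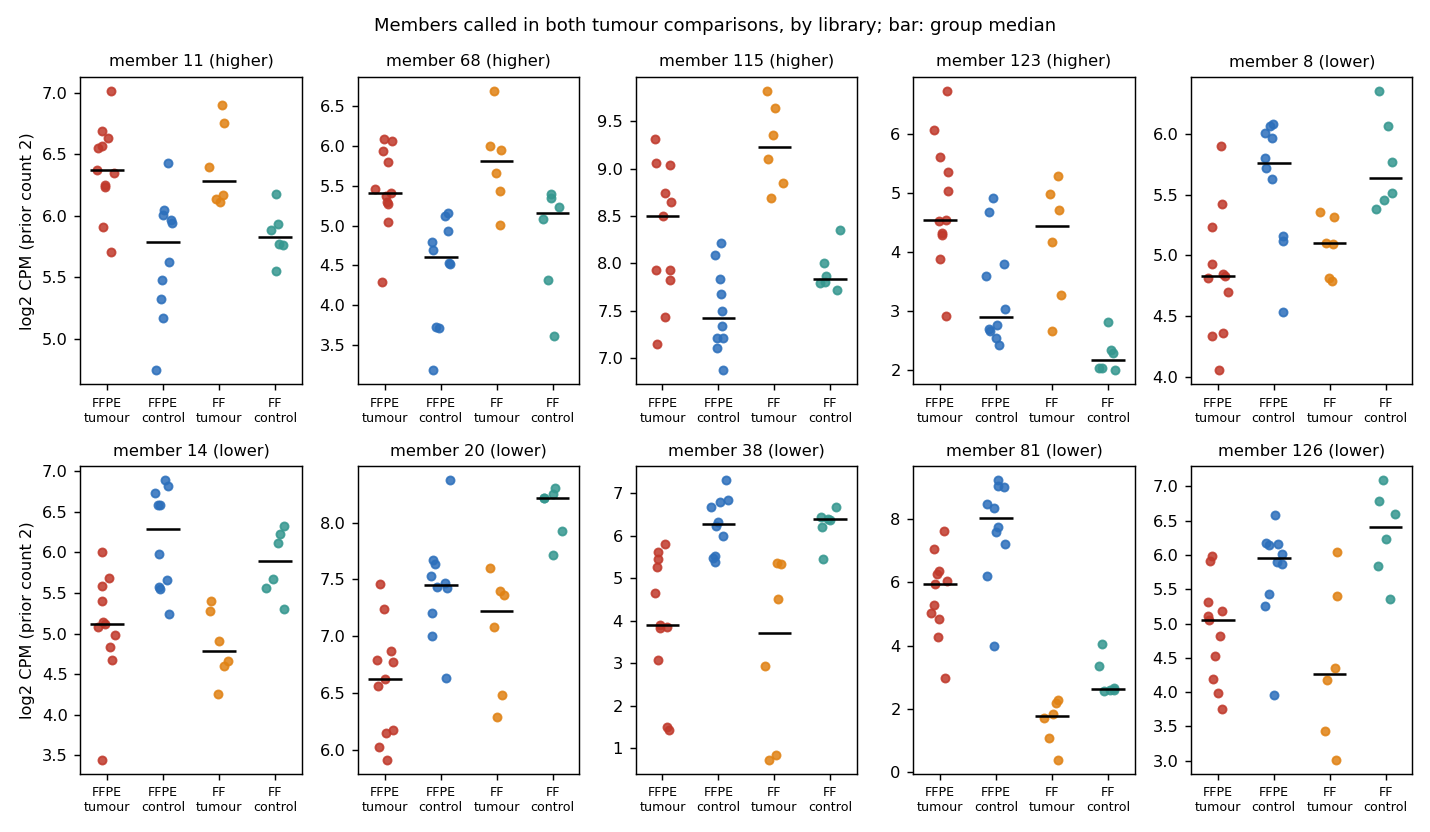
Level of the 10 members called in both tumour comparisons, in log2 CPM with a prior count of 2, in each library of the 4 groups. Bars are group medians. Members 11, 68, 115 and 123 are higher in tumours and members 8, 14, 20, 38, 81 and 126 are lower, and member 81 is far higher in FFPE than in FF libraries.

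Some members passed in FFPE tissue only, namely 16 and 124 beside member 100. Member 16 (chr12:482106-488686, 3 exons) had 7.70, 22.2 and 36.3 CPM in FFPE tumours, against 6.18, 10.3 and 14.6 CPM in FFPE controls, with 8 of 11 tumours above every control (0.90 ± 0.26, adjusted p = 0.0189). Member 124 (chr12:2822295-2827413, 15 exons) had 14.1, 21.4 and 48.4 CPM in FFPE tumours, against 14.2, 39.3 and 68.0 CPM in FFPE controls (-0.90 ± 0.27, adjusted p = 0.0211). A further 15 passed in FF tissue only. They include member 93 (chr12:1906559-1907943, 2 exons and 228 bp), with 3.48, 5.40 and 17.3 CPM in FF tumours, against 0.541, 1.72 and 3.25 CPM in FF controls, without overlap (1.94 ± 0.53, adjusted p = 0.0166). That call was lost without FF tumour dog 60461, which had the 17.3 CPM (1.38 ± 0.47, adjusted p = 0.053). Member 59 (chr12:1206309-1208389, 6 exons) had 3.31, 9.82 and 15.3 CPM in FF tumours, against 2.18, 2.505 and 7.55 CPM in FF controls (1.44 ± 0.45, adjusted p = 0.0296). The call on member 59 was lost on leaving out any of 9 of the 12 libraries, all but tumour dogs 60127 and 60461 and control dog 60516. Member 4 (chr12:242714-255305, 8 exons) had 1.10, 3.07 and 5.48 CPM in FF tumours, against 5.17, 7.56 and 15.9 CPM in FF controls (-1.31 ± 0.39, adjusted p = 0.0244), a call lost without control dogs 60459 (-1.06, adjusted p = 0.068) or 60629 (-1.29, adjusted p = 0.0502).

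Member 109 (chr12:2627828-2655814, 68 exons) owed much of its difference to 1 dog. It had 9.68, 21 and 133.5 CPM in FF tumours, against 6.99, 10.6 and 14.2 CPM in FF controls (2.02 ± 0.57, adjusted p = 0.0197). The 133.5 CPM was dog 60749, and without it the value was 1.00 ± 0.32 (adjusted p = 0.0444). The FFPE tumour of the same dog had the highest level among FFPE tumours, 146 CPM, and FFPE control dog 45726 had 145 CPM.

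The tumour effect was not found to differ between FFPE and FF tissue for any member. In the interaction test over all 33 libraries 0 of 92 members passed, where 0% of 15714 genes did, and 0 passed with DESeq2 or with limma voom. At an unadjusted p under 0.05 there were 2 members (2.17%), beside 3.66% of all genes. The smallest p belonged to member 109 (-1.62 ± 0.75, unadjusted p = 0.0378), member 93 (-1.23 ± 0.60, p = 0.0482) and member 71 (chr12:1363803-1399728; -1.66 ± 0.82, p = 0.051), each with an adjusted p of 1. The sign gives the FFPE effect minus the FF effect. The estimate was positive in 22 of 92 members, with a median of -0.23, where 50% of all genes were positive.

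Preservation was compared in the 8 dogs with both libraries. The main fit had tissue as a covariate but not the dog, so it did not use the pairing. Of 94 members tested 1 changed, or 1.06%, where 2.95% of all 17097 genes were called (2.81% higher in FFPE). Member 81 was higher in FFPE libraries (3.34 ± 0.52, adjusted p = 0.00486). It had 7.69 to 150 CPM in FFPE libraries and 1.13 to 16.4 CPM in FF libraries of these dogs, and was higher in FFPE in 7 of 8. Dog 60126 had 15.5 CPM in FFPE and 16.4 CPM in FF tissue, and dog 60461 had 77.1 CPM in FFPE and 1.13 CPM in FF tissue. With the dog as a block in the fit, which uses the pairing, members 81 (3.05 ± 0.61, adjusted p = 0.0214) and 46 (0.86 ± 0.21, adjusted p = 0.0374) passed. The share of all genes called in that fit is not given here. Member 46 (chr12:1112614-1125443, 30 exons) had higher levels in FFPE than in FF libraries in each of the 8 dogs, by 0.15 to 2.21 on the log2 scale. The tested window members differed by -0.30 to 0.93 on the log2 scale between FFPE and FF libraries, and none passed.

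Member 34 (chr12:892388-1021690, minus strand, 17 exons) varied between dogs far more than between preservations. In the 8 dogs its level ran from 3.58 to 183 CPM in FFPE libraries and from 2.46 to 274.5 CPM in FF libraries. Within a dog the FFPE and FF libraries differed by a median of 0.34 and at most 0.92 on the log2 scale. Dog 60461, a Boxer, had 183 CPM in FFPE and 274.5 CPM in FF tissue, and dog 60636 had 92.1 CPM in FFPE and 102.8 CPM in FF tissue. Dogs 60127 and 60460 were low in both, with 3.58 CPM in FFPE and 6.95 CPM in FF tissue for dog 60127, and 3.75 CPM in FFPE and 2.46 CPM in FF tissue for dog 60460. This member was called higher in FF tumours (2.36 ± 0.80, adjusted p = 0.0404), where it had 6.95, 39.5 and 274.5 CPM, against 2.46, 14.6 and 31.4 CPM in FF controls. The Boxer was the highest FF tumour and there was no Boxer among FF controls. Without it the value was 1.38 ± 0.68 (adjusted p = 0.154), and the call was also lost without tumour dogs 60631 or 60636 or control dogs 60459, 60460, 60516 or 60629. In FFPE tissue member 34 was not called, and 6 of 11 tumours were above the control median and 5 below it.

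**Figure D4:**
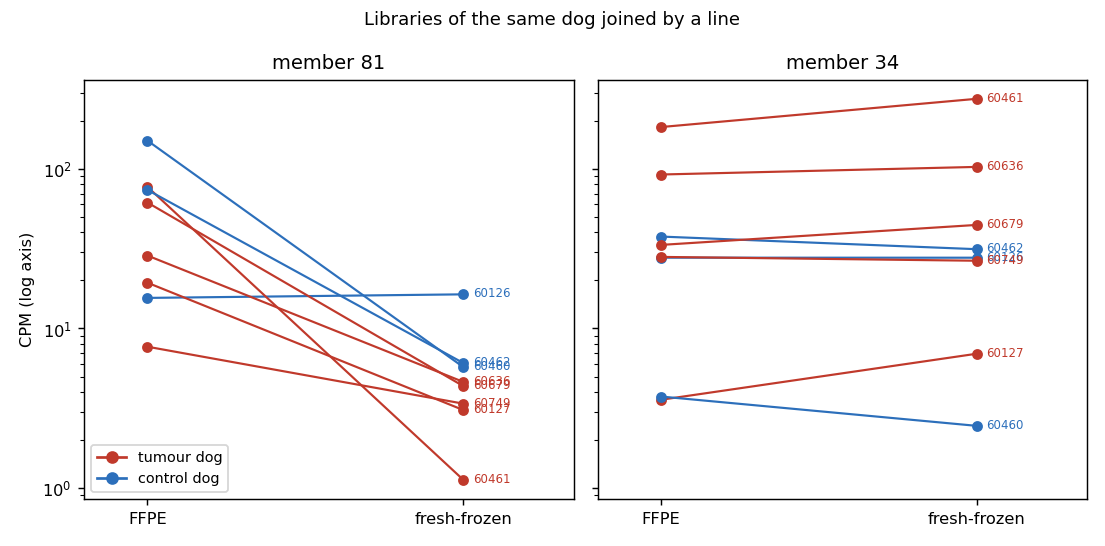
Level of members 81 and 34 in the FFPE and the FF library of each of 8 dogs, in CPM on a log axis, with lines joining the libraries of a dog (red, tumour dogs; blue, control dogs). Member 81 is higher in FFPE in 7 of 8 dogs, whereas the lines of member 34 are nearly level and the dogs range from 2.46 to 274.5 CPM in FF tissue.

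Breed was compared in FFPE tissue between Boxers (n = 8) and French Bulldogs (n = 11), with tissue as a covariate. Of 90 members 0 passed, where 0% of 14760 genes did, and 0 passed with DESeq2 or limma voom. At an unadjusted p under 0.05 there were 5 members (5.56%), beside 4.23% of all genes. Those described here were chosen after their values were seen. Member 34 had 76.2, 116 and 201 CPM in Boxers, against 3.75, 37.6 and 398 CPM in French Bulldogs, and 9 of 11 French Bulldogs were below every Boxer (1.34 ± 0.62, unadjusted p = 0.0427, adjusted p = 0.999). Member 113 (chr12:2694950-2696929, 2 exons) had the smallest p (2.897 ± 0.82, unadjusted p = 0.0018, adjusted p = 0.999). It was at most 0.170 CPM in every FF library but reached 43.7 CPM in FFPE tumours and 195 CPM in FFPE controls, the last in dog 50315, the shallowest library.

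Spread between dogs was described by the SD of log2 CPM within groups, pooled over tumour and control. The members were close to all genes tested, with a median SD of 0.75 in FFPE libraries, beside 0.78 over all genes, and of 0.54 in FF libraries, beside 0.58. Above the 90th percentile of all genes were 5 of 88 members in FFPE and 11 of 92 in FF libraries. Member 34 stood at percentile 98.7 in FFPE and 96.3 in FF libraries. Window members 98, 99 and 100 stood at percentiles 92.9, 96.1 and 96.3 in FF libraries, where dog 60516 is among the controls.

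**Figure D5:**
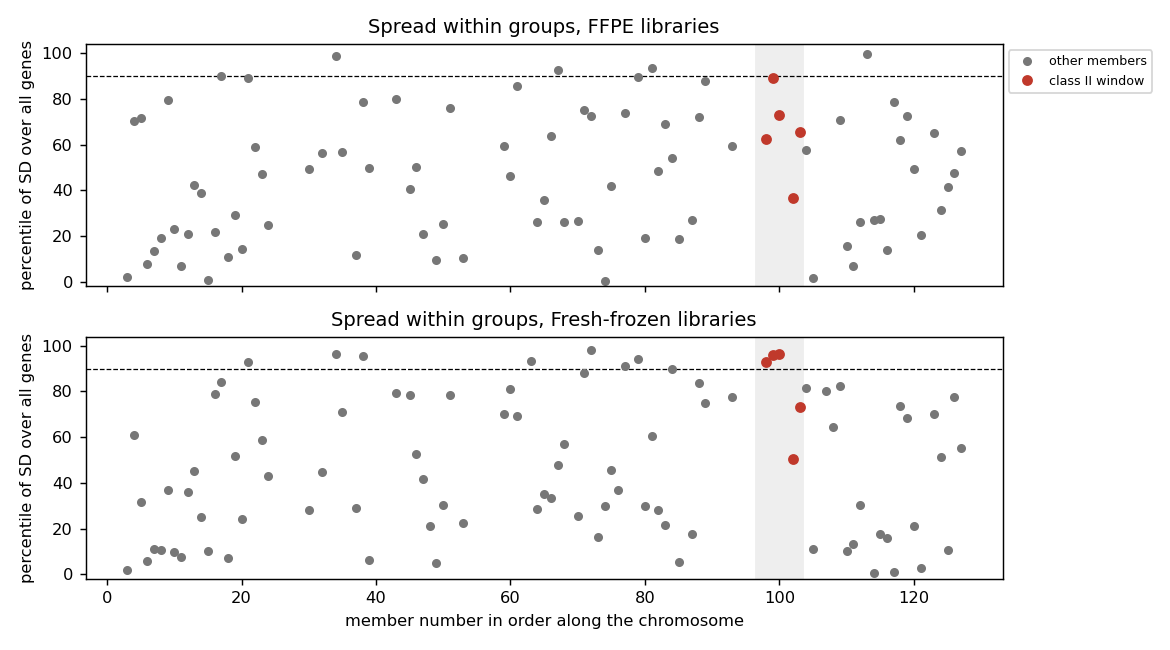
Percentile of each tested member among all genes tested for the SD of log2 CPM within groups, by member number, in FFPE (top) and FF libraries (bottom). The dashed line marks the 90th percentile and red points are window members, of which 3 lie above it in FF libraries and 0 in FFPE libraries.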

How the data were processed

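The deposited values are raw counts of fragments per gene; per the file headers the authors used featureCounts 1.6.0 with a mapping quality of 10 or more, strand option 1, no chimeric fragments and the Ensembl release 100 models of CanFam3.1. The submitters' processing notes also list fastp and STAR, without versions. Libraries carried molecular identifiers of 12 nt, and no source used here says if they were used to collapse reads. Fragments of several genes or positions were not counted under the deposited settings. The MHC is polymorphic and holds near-identical copies, so members can be undercounted by an amount that varies with a dog's alleles, which was not tested.

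Total counts per library were 406406 to 32584840. The main test was the robust quasi-likelihood F test of edgeR 4.0.16 (R 4.3.3), with filterByExpr and TMM scaling, over all genes, with Benjamini-Hochberg adjustment at 0.05. DESeq2 1.42.0, limma 3.58.1 voom, RLE scaling, other filters, covariates and left-out libraries were alternatives. CPM used TMM over all 33 libraries. Scripts were tested on simulated data. In the 130 pairs of libraries within groups, counts differed by at least 19 times the sampling noise (chi-square per degree of freedom). Same-numbered libraries were paired by the dog number in the sample titles. Their deviations from group means correlated at 0.0641 (dog 60461) to 0.748 (dog 60749). No such correlation was computed between libraries of different dogs, so these values alone cannot check the pairing.

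Members and lists were chosen with earlier results of these data known. Described are the tested window members, up to 6 called members per direction and tumour comparison outside the window, the 5 most abundant in FF libraries, called members of the other tests, the 3 smallest interaction p-values and members called in both tumour comparisons. Others were chosen after their values were seen and are named as such. Gene lists and cell type markers needed names and were not used here.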

Additional observations from a re-analysis of the deposited data

Results flagged for a closer look

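Among 75 sets of 1 member in 1 group that were examined, 8 had a library far from the others of its group, where chance gives about 1 in 20. The sets share dogs, so they are not independent of each other. FFPE tumours (n = 11) were not examined, because the outlier limits used did not cover a group of that size.

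Dog 60516 was the highest FF control in 4 of them. It had 164.6 CPM for member 99 (others 6.73 to 17.9 CPM) and 33.28 CPM for member 100 (others 1.18 to 4.32 CPM). It had 7.553 CPM for member 59 (others 2.18 to 3.12 CPM) and 78.43 CPM for member 71 (others 11 to 20.2 CPM). Its part in the FF results of the class II window is given by the fits without it, which moved the median log2 fold change of the window to 2.60.

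Dog 60462 was low for member 126 in FFPE controls, with 15.37 CPM (others 38.1 to 95.3 CPM), and for member 46 in FF controls, with 58.07 CPM (others 128.9 to 159.3 CPM). FFPE control dog 60126 had 14.19 CPM for member 124 (others 31.2 to 68.0 CPM). FFPE control dog 50315 had 0 CPM for member 93 (others 1.38 to 6.56 CPM), in a library where a count of 0 allows up to 7.38 CPM.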

How the results depend on the processing

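In the tumour comparisons, no call on a named member changed direction under DESeq2, limma voom, RLE scaling, the stricter count filter or leaving out each library. The same held with age or FF set as a covariate, without the shared dogs or the shallow FFPE libraries, and in the larger FF set. Direction was not compared for all named members in the other runs. In FFPE tissue the count of members called was 13, and 22 with limma voom, 6 without the dogs that also gave an FF library, 0 in those dogs alone (12 at an unadjusted p under 0.05; chosen after seeing the data) and 0 with age as a covariate; it was 10 to 18 under the other alternatives, and 11 to 18 on leaving out each library. In FF tissue the count was 25, and 15 in the larger set of libraries, 0 in the smaller set (15 at an unadjusted p under 0.05; chosen after seeing the data), 1 with age as a covariate and 7 of 37 tested with every library thinned to the lowest total count; it was 17 to 35 under the others. Leaving out each FF library gave 14 (without control dog 60460) to 37 (without control dog 60516), with 16 without tumour dog 60631, 16 without control dog 60459 and 15 without control dog 60629.

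Between FFPE and FF libraries of the same dogs the count was 1, and 5 with DESeq2 (members 46, 50, 81, 82 and 125), 4 with limma voom (13, 50, 81 and 125) and 2 with the dog as a replicate block; leaving out each dog gave 1 each time. With the dog as a random block the interaction test called 0 members. The window median was 0.73 to 1.12 in FFPE and 1.21 to 2.60 in FF tissue on leaving out each library. Under the other alternatives it was 0.86 (limma voom) to 1.62 (age as a covariate) in FFPE tissue, with 1.598 in the dogs with both libraries alone, and 1.15 (thinned, 3 members) to 2.45 (limma voom) in FF tissue. The breed count was 0 under every alternative run. With age as a covariate 28 of 29 calls on named members were lost, 13 of 13 in FFPE and 15 of 16 in FF tissue. In the larger set of FF libraries members 11, 20, 38, 68, 81 and 126 lost theirs. The cause of these changes was not tested, and the shares of all genes called in these runs are not given here. Thinning shows what depth limits: 37 members remained testable at the lowest depth.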
